A study of Drosophila melanogaster with 20 samples.

Results

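Heads of mated female Drosophila melanogaster were compared with heads of virgin females 48 h after mating on 4 of the 20 arrays of the series, and these 4 arrays were chosen by their labels alone. Each was a 2-channel oligonucleotide array on which a mated and a virgin sample were hybridised together. All females were of the Canton S strain and 5 days old when 10 of them were placed with 20 males for 2 h. The males carried w; P[UAS-dj-GFP], which marks sperm with green fluorescence, and only females with strong fluorescence in the lower abdomen were kept as mated after sorting under CO2. The virgins were matched for age and never mated, and both groups lived on food at 25 °C with 12 h of light a day until they were frozen without further anesthesia. Each sample was RNA pooled from about 100 heads, of which 20 µg was labelled, so variation between single flies cannot be seen and every ratio is an average over brain, eyes, fat body and other head tissues. Mated RNA carried Cy3 on replicates 1 and 2 and Cy5 on replicates 3 and 4. The values are log2 ratios of mated over virgin, so a negative value is a lower transcript level after mating (repressed) and a positive value a higher one (induced).

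The head of a fly holds a layer of fat body, the insect tissue that stores protein, glycogen and fat and secretes most proteins of the haemolymph, around the brain. After mating, females lay more eggs, eat more and remate less, and the yolk of those eggs draws on amino acids, sugars and lipids handled by fat body. Hexamerins (larval serum proteins) are stores of amino acids, odorant-binding proteins and takeout-like proteins are small secreted carriers of hydrophobic molecules, and serine peptidases cut proteins in gut, haemolymph and reproductive tract.

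Of 15744 probes, 3786 had a value on at least 1 array and 2981 had values on 2 or more and were tested. These were 1517 probes with 4 values, 755 with 3 and 709 with 2, and 10.3% of tested probes had values in only 1 dye orientation. The arrays held 2816, 2875, 2076 and 2789 values in the order of replicates, so replicate 3 was the sparsest. Arrays with the same dye orientation resembled each other more (Pearson's r across probes = 0.58 for replicates 1 and 2 and 0.70 for replicates 3 and 4) than arrays of opposite orientation (0.14 to 0.44), and probes are not independent replicates. With 4 arrays at most behind a mean, its precision is limited. The table names no genes. A row has a name here only where its mean ratio equals that of an entry in the study's lists of top genes. The 48 h list was ranked on these same arrays and the other lists on other arrays of the series. Of 135 probes that were named by another list only and measured at 48 h, 2 were called. The counts below mix both kinds, so no count of named genes is independent evidence of a direction.

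limma's moderated test against a log2 ratio of 0 called 74 of 2981 probes (2.48%) at an adjusted p under 0.05. Of these, 59 (1.98%) were lower and 15 (0.503%) higher in mated heads, and 36 of the lower and 9 of the higher ones differed by at least 2-fold, as did 1.44% and 0.671% of all tested probes. Over all tested probes the median mean log2 ratio was 0.01, 47.8% of means were below 0 and 52.2% above. At an unadjusted p under 0.05 were 451 probes (15.1%), 9.49% lower and 5.64% higher. Of probes with 4 values, 17.7% were lower on all 4 arrays and 12.7% higher on all 4. All 74 called probes had the same sign on every array with a value and in both dye orientations. A test of the mean against 0 on the same arrays favours such probes, so this describes the calls and does not support them. Of all probes measured in both orientations, 51.1% had the same sign in both. Without replicate 1 the test called 34 probes, of which 33 were among the 74, and without replicate 3 it called 14, all of them among the 74. A name was available for 73 called probes, 58 lower and 15 higher. Of these named calls, 58 were lost without replicate 3, 40 without replicate 1, 21 without replicate 2 and 6 without replicate 4. Of the same 73, 13 stayed called under every alternative that could be fitted to them apart from a one-sample test without limma's moderation, which called no probe after adjustment and 357 at an unadjusted p under 0.05. They were Lsp2, Lsp1beta, Obp99b, Obp99a, to, CG10962, CG11909, CG32444, CG9515, CG10516 and CG9119, all lower, and CG9676 and CG8343, both higher. Obp99b and CG10962 had 2 values each and could be fitted under only 8 of 12 alternatives. Neither could be tested without an array that measured it. CG9515 had no value on replicate 3, so leaving out that array removed none of its values.

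**Figure D1:**
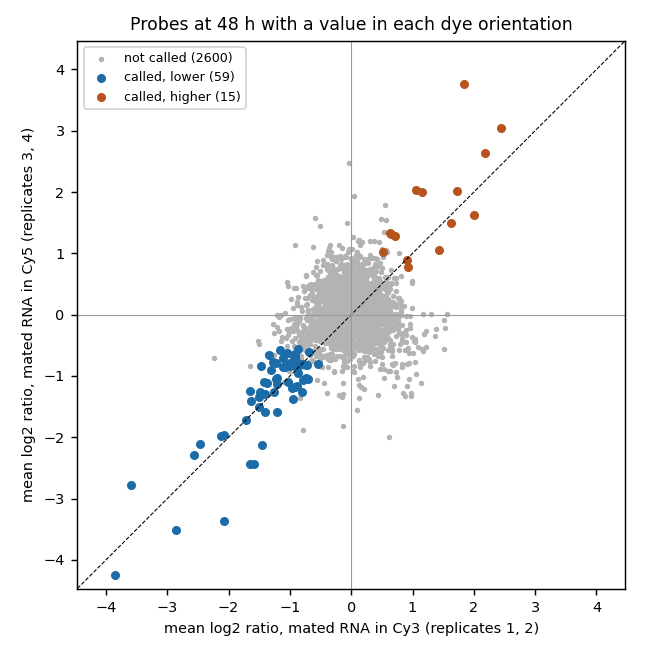
Each point is a probe with a value in each dye orientation at 48 h, placed by its mean log2 ratio of mated over virgin on the arrays with mated RNA in Cy3 (x axis, replicates 1 and 2) and in Cy5 (y axis, replicates 3 and 4). Called probes (adjusted p under 0.05 from limma, 59 lower in blue, 15 higher in orange) lie in the quadrants where both orientations have the same sign, and the dashed line marks equality.

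The lowest means among called genes belonged to the hexamerins. Lsp2 had log2 ratios of -3.71, -3.99, -4.95 and -3.56 on the 4 arrays, a mean of -4.05 ± 0.62 (SD, n = 4, SE 0.23), or 16.6-fold lower in mated heads (adjusted p = 0.000274 from limma). Each SE given here and below is limma's moderated one. It borrows spread from all tested probes and is not the SD divided by the root of n. Lsp1beta had -2.68, -3.05, -3.99 and -3.02, a mean of -3.19 ± 0.56 (SD, n = 4, SE 0.21), or 9.10-fold lower (adjusted p = 0.000383 from limma). Both were lowest on replicate 3, and every array was more than 2 log2 units below 0. The other members of the list of fat body storage proteins have no named probe here.

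Of 7 measured secreted haemolymph and odorant-binding proteins, 6 fell and none rose, with a median over members of -1.09. Over all tested probes 1.98% were called lower and 0.503% higher. Members of this and the later lists have a name only because the study's lists of top genes hold them. Of the 7 here, 6 are in the 48 h list, which was ranked on these arrays. A high share of calls among such members is therefore built in and is no result about the group. Obp99b, an odorant-binding protein, was measured on 2 arrays only, at -3.60 on replicate 2 and -2.77 on replicate 4, a mean 9.09-fold lower (adjusted p = 0.00333 from limma). Obp99a had -1.43, -1.73, -2.57 and -2.30, a mean of -2.01 ± 0.52 (SD, n = 4, adjusted p = 0.00266 from limma). The arrays with mated RNA in Cy5 were the lower ones for Obp99a. The carrier gene to (takeout), known from fat body around the brain and from feeding and circadian behaviour, had -1.46, -1.56, -1.21 and -1.82, a mean of -1.51 ± 0.25 (SD, n = 4, adjusted p = 0.00266 from limma). Its 4 arrays lay within a narrow range. Nplp3, a neuropeptide-like precursor, had -1.03, -0.87 and -1.38 on replicates 1, 2 and 4 (mean -1.09 ± 0.26, SD, n = 3), which was 2.13-fold lower (adjusted p = 0.026 from limma). The iron carrier Tsf1 (mean -0.67 ± 0.17, SD, n = 4, adjusted p = 0.0486 from limma) and the extracellular glycoprotein Glt (mean -0.65 ± 0.07, SD, n = 4, adjusted p = 0.0425 from limma) changed least in this group, and both calls were lost without any 1 array. The seventh member, fit, a fat body peptide made mostly in females, had -0.14, -0.66, -1.26 and -1.30 and did not pass (mean -0.84 ± 0.55, SD, n = 4, adjusted p = 0.091 from limma).

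**Figure D2:**
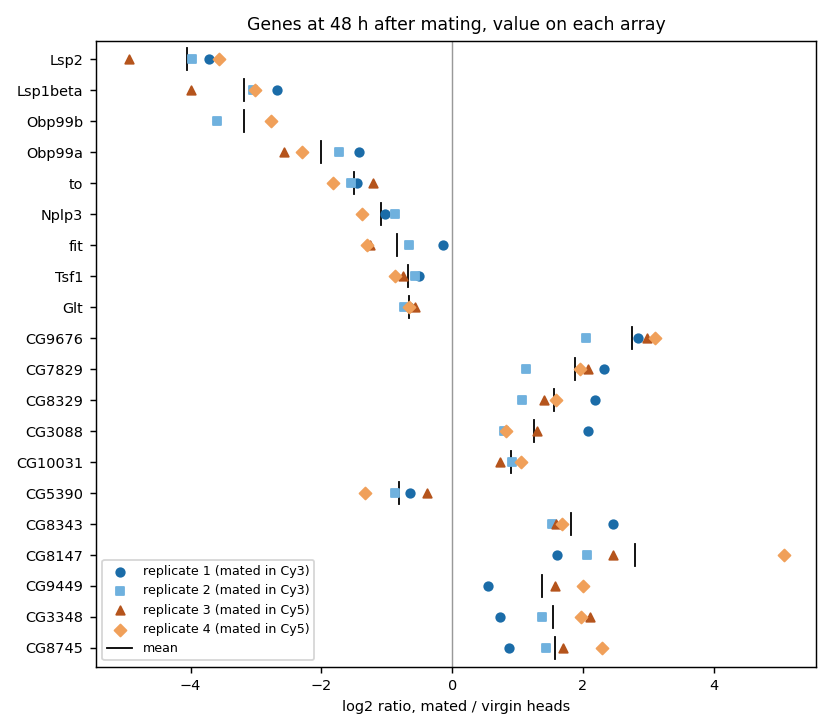
Log2 ratio of mated over virgin heads (x axis) for storage, secreted, peptidase and other genes (rows) on each of the 4 arrays at 48 h, with black bars for means, blue symbols for arrays with mated RNA in Cy3 and orange symbols for Cy5. The values of Lsp2 lie between -4.95 and -3.56, those of CG9676 between 2.05 and 3.11, and the wide spread of CG8147 comes from replicate 4 at 5.07.

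These tissue samples are bulk, and fewer cells of a type and less RNA per cell cannot be told apart in them. As a check of the labelled tissue, 2 of 6 eye genes, 4 of 8 nervous system genes and all 5 fat body genes on the marker lists were measured, but a ratio does not give a level. Of the fat body markers (Lsp2, Lsp1beta, Obp99b, to and fit), 4 fell, and their median on single arrays was between -3.05 and -2.07. These 5 were chosen by the study on these same samples, and 4 of them are in its 48 h list. No eye or nervous system marker is in that list, so the contrast between the tissues follows from this choice and is no independent test. No eye or nervous system marker was called. The eye genes Rh5, a rhodopsin, and retinin, a lens protein, had means of -0.09 ± 0.62 and -0.15 ± 0.36 (SD, n = 4). Among nervous system markers, the calcium channel gene cac had 0.41 and 1.33 with mated RNA in Cy3 and -0.45 and -0.69 with mated RNA in Cy5, and the synaptic regulator cpx had 0.28, 0.98, -0.71 and -1.13. Both genes were above 0 in one dye orientation and below it in the other. The neuropeptide gene sNPF was at 0.16 ± 0.28 (SD, n = 4), and the RNA-binding protein gene bru-3 had -0.08 and -0.37 on replicates 1 and 4. The part of fat body cell content in the lower ratios was not tested.

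Of 10 measured genes of sugar and glycogen metabolism, 7 fell and none rose, with a median of -0.84, beside 1.98% called lower over all tested probes. Of these 10, 9 are in the study's 48 h list of top genes. CG11909 (now tobi), an alpha-glucosidase known to respond to insulin and insulin-like signals, had -2.52, -2.42, -2.58 and -1.66, a mean of -2.30 ± 0.43 (SD, n = 4), or 4.91-fold lower (adjusted p = 0.000838 from limma). Replicate 4 stood above replicates 1 to 3, which lay close together. CG32444, a predicted aldose epimerase, had -1.95, -2.19, -2.08 and -1.84 (mean -2.01 ± 0.15, SD, n = 4, 4.04-fold lower, adjusted p = 0.000383 from limma). The spread between its arrays was among the smallest of the strongly changed genes. CG9485, the glycogen debranching enzyme, had -1.05, -1.37 and -1.04 on replicates 1 to 3 (mean -1.15 ± 0.19, SD, n = 3, adjusted p = 0.0173 from limma). The other members that fell were Gip (-1.14), Pgm, the phosphoglucomutase (-0.87), Pgi, the glucose-6-phosphate isomerase (-0.81), and CG5288, the galactokinase (-0.80), as mean log2 ratios over 4 arrays. The glycogen branching enzyme CG33138 was at -0.79 ± 0.42 (SD, n = 4, adjusted p = 0.0705 from limma) and the glycolytic enzyme Tpi at -0.65 ± 0.43 (SD, n = 3, adjusted p = 0.212 from limma). CG13369, a predicted ribokinase, stood apart with 0.95 and 1.14, but both values come from the arrays with mated RNA in Cy5 (adjusted p = 0.0748 from limma). Without replicate 3 the calls of CG11909 and CG32444 remained, and those of CG9485, Gip, Pgm, Pgi and CG5288 were lost.

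The pentose phosphate shunt makes NADPH and sugar phosphates, and of 5 measured genes of the shunt and of other NADPH supply, 4 fell, with a median of -0.998. All 5 are in the study's 48 h list of top genes, and 1.98% of all tested probes were called lower. Tal, the transaldolase, had -1.13, -1.40, -1.36 and -1.17 (mean -1.27 ± 0.13, SD, n = 4, adjusted p = 0.00285 from limma). CG8036, a transketolase, had -0.98, -1.18, -0.86 and -0.85 (mean -0.97 ± 0.15, SD, n = 4, adjusted p = 0.00968 from limma). In both enzymes, which exchange carbon units between sugar phosphates, the 4 arrays were alike. The NADPH-forming enzymes Men, malic enzyme, and Pgd, 6-phosphogluconate dehydrogenase, varied more, from -1.76 to -0.77 and from -1.66 to -0.52, with replicate 2 lowest in each (adjusted p = 0.0173 and 0.0412 from limma). The lactonase CG17333 was lower on all 4 arrays at -0.97 ± 0.54 (SD, n = 4) and missed the threshold (adjusted p = 0.0562 from limma).

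Of 11 measured genes of serine, glycine, methionine and folate one-carbon metabolism, 7 fell and none rose, with a median of -0.91. Over all tested probes 1.98% were called lower and 0.503% higher, and 8 of the 11 genes are in the study's 48 h list. aay, the phosphoserine phosphatase of serine synthesis, had -0.84, -0.72, -1.15 and -0.98 (mean -0.92 ± 0.18, SD, n = 4, adjusted p = 0.0139 from limma). CG3011, which moves a carbon from serine to folate (Shmt), had -0.83, -0.98, -0.81 and -0.69 (mean -0.83 ± 0.12, SD, n = 4, adjusted p = 0.0178 from limma), and pug, a folate interconverting enzyme, -1.01, -1.21 and -0.86 on replicates 1 to 3 (adjusted p = 0.026 from limma). All single values of these genes lay between -1.21 and -0.69. The others that fell were CG10361, which breaks down threonine to glycine (Gcat, mean -1.45, n = 2), CG10184, a predicted threonine aldolase (-1.33, n = 3), the spermidine synthase SpdS (-0.91, n = 4) and the sarcosine dehydrogenase CG6385 (-0.89, n = 4). The homocysteine methyltransferase CG10621 was at -0.69 ± 0.28 (SD, n = 4, adjusted p = 0.0648 from limma). The glycine cleavage genes CG3999 and ppl had means of -0.99 ± 0.88 (SD, n = 4) and -0.61 ± 0.44 (SD, n = 3), and Ahcy13, of the methionine cycle, 0.11 ± 0.29 (SD, n = 4). All 7 calls were lost without replicate 3, and 6 of them without replicate 1, CG10184 being the exception. However, CG10184 has no value on replicate 1, and CG10361 has none on replicates 1 and 3. For these genes such an omission removed no value and changed only the fit over the other probes.

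Among 7 measured aminotransferases and other amino acid enzymes, 4 fell and 1 rose. Over all tested probes 1.98% were called lower and 0.503% higher, and 5 of the 7 genes are in the study's 48 h list. The aspartate aminotransferases Got2 (-1.09, -1.35, -0.83 and -0.76, mean -1.01 ± 0.27, SD, n = 4) and Got1 (-0.90, -1.21, -0.60 and -0.65, mean -0.84 ± 0.28, SD, n = 4) were both lowest on replicate 2, and limma gave adjusted p = 0.0139 and 0.0299. CG15093, a predicted enzyme of valine breakdown, and CG5840, of proline synthesis, had means of -0.92 ± 0.30 and -0.79 ± 0.24 (SD, n = 4). CG8745, a predicted class III aminotransferase, went the other way with 0.87, 1.43, 1.70 and 2.29, a mean of 1.57 ± 0.59 (SD, n = 4), or 2.97-fold higher (adjusted p = 0.00968 from limma). It was higher on every array, and the 2 values with mated RNA in Cy5 were the larger ones. The 2 remaining members, hgo and asparagine-synthetase, were at -0.08 and 0.16.

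**Figure D3:**
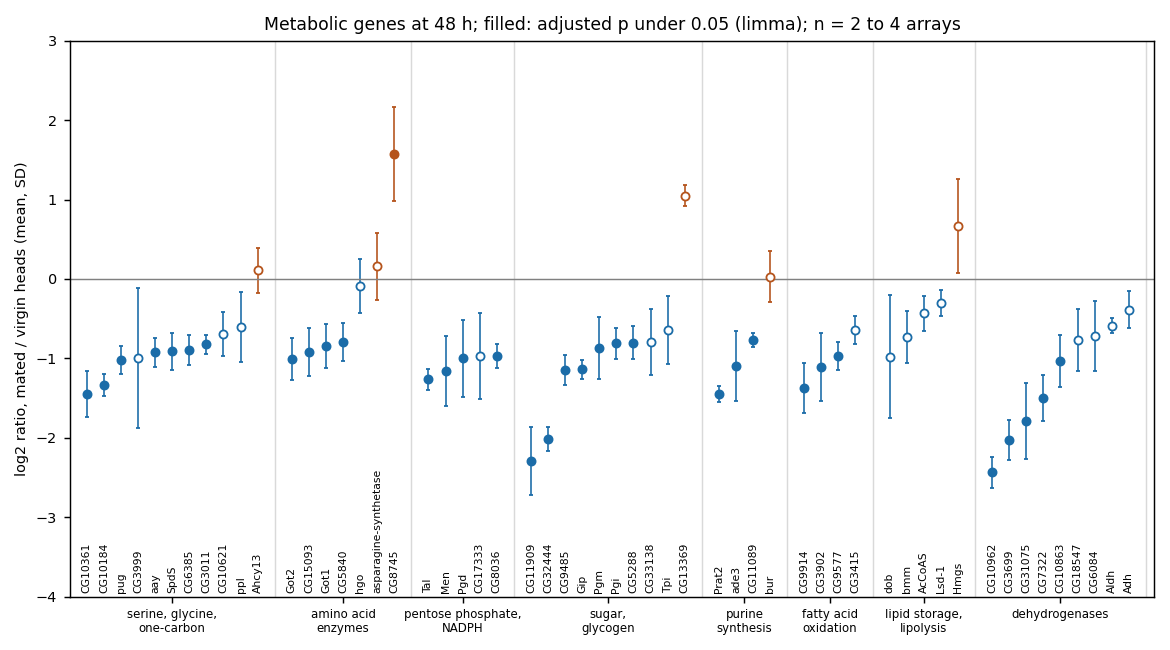
Mean log2 ratio of mated over virgin heads (y axis, error bars SD, n = 2 to 4 arrays) of each measured gene of 8 metabolic lists (carnitine synthesis is not plotted), grouped by list along the x axis, with filled points for an adjusted p under 0.05 from limma and open points otherwise. Filled points are nearly all below 0, between -2.43 (CG10962) and -0.77 (CG11089), and the exception is CG8745 at 1.57.

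In purine synthesis 3 of 4 measured genes fell. These 3 are all in the study's 48 h list of top genes, and 1.98% of all tested probes were called lower. The first enzyme, Prat2, had -1.55, -1.46 and -1.35 on replicates 1, 2 and 4 (mean -1.45 ± 0.10, SD, n = 3, 2.74-fold lower, adjusted p = 0.00456 from limma). CG11089, of the last steps to IMP, had -0.68, -0.77, -0.75 and -0.89 (mean -0.77 ± 0.09, SD, n = 4, adjusted p = 0.0228 from limma), and ade3, of several early steps, was more scattered at -0.92, -1.59 and -0.77 on replicates 2 to 4 (adjusted p = 0.0455 from limma). The call of ade3 did not survive a dye term, scaling of the arrays, a joint fit of all 20 arrays or the loss of replicate 1, 2 or 3. Leaving out replicate 1 removed no value of ade3 and changed only the fit over the other probes. The GMP synthetase bur, which acts after IMP, was at 0.03 ± 0.33 (SD, n = 4), above 0 in one dye orientation and below it in the other.

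In fatty acid oxidation 3 of 4 measured genes fell. All 4 are in the study's 48 h list of top genes, and 1.98% of all tested probes were called lower. CG9914 (Had1), a hydroxyacyl-CoA dehydrogenase, had -1.14, -1.84, -1.30 and -1.24 (mean -1.38 ± 0.31, SD, n = 4, 2.60-fold lower, adjusted p = 0.00384 from limma). The acyl-CoA dehydrogenase CG3902 had a mean of -1.11 ± 0.43 (SD, n = 4) and the enoyl-CoA hydratase CG9577 one of -0.97 ± 0.18 (SD, n = 3), and limma gave adjusted p = 0.0202 and 0.0312. The peroxisomal enzyme CG3415 (Mfe2) was at -0.64 ± 0.18 (SD, n = 4, adjusted p = 0.0595 from limma), lower on all 4 arrays. A gene of peroxisome assembly, CG11919 (Pex6), was read by 2 probes. One had -1.16, -1.60, -1.14 and -1.09 and the other -0.95, -1.47, -1.20 and -1.06, with means of -1.25 and -1.17 (adjusted p = 0.00384 and 0.00456 from limma). Both probes were lowest on replicate 2.

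No gene of lipid storage and lipolysis was called among 5 measured, whose median was -0.43. The triglyceride lipase bmm (brummer) had -1.03, -0.38 and -0.79 on replicates 2 to 4 (mean -0.73 ± 0.33, SD, n = 3, adjusted p = 0.114 from limma), and its relative dob had -1.53 and -0.43. The lipid droplet protein Lsd-1 (perilipin) was at -0.31 ± 0.16 (SD, n = 4), lower on all 4 arrays, but its adjusted p was 0.345 from limma. AcCoAS, the acetyl-CoA synthetase, was at -0.43 ± 0.22 (SD, n = 4, adjusted p = 0.219 from limma). Hmgs, the HMG-CoA synthase of the isoprenoid pathway, was near 0 with mated RNA in Cy3 (0.19 and 0.12) and higher in Cy5 (1.18 and 1.19). Both genes of carnitine synthesis, which serves the entry of fatty acids into mitochondria, are predicted gamma-butyrobetaine dioxygenases. CG10814 had -1.65, -2.49, -2.95 and -3.79, a mean of -2.72 ± 0.89 (SD, n = 4), or 6.59-fold lower (adjusted p = 0.00306 from limma). Every array was below -1.6, but the range over the arrays was wide, and the call was lost without replicate 3. CG5321 was at -0.66 ± 0.27 (SD, n = 4, adjusted p = 0.0739 from limma).

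Of 9 measured dehydrogenases acting on alcohols, aldehydes and related substrates, 5 fell, and all 9 had a mean below 0, with a median of -1.03. Over all tested probes 1.98% were called lower and 47.8% of means were below 0. Of the 9 genes, 7 are in the study's 48 h list of top genes, so a shared direction is partly built in. CG10962, a short-chain dehydrogenase, had -2.57 on replicate 2 and -2.30 on replicate 3, the only arrays with a value (5.41-fold lower, adjusted p = 0.00384 from limma). CG3699, of the same family, had -2.12, -2.21 and -1.74 on replicates 2 to 4 (mean -2.03 ± 0.25, SD, n = 3, 4.07-fold lower, adjusted p = 0.00266 from limma), and CG7322 had -1.09, -1.74, -1.54 and -1.64 (2.83-fold lower in the mean, SD 0.29, n = 4, adjusted p = 0.0028 from limma). The aldehyde dehydrogenase CG31075 was lower on both arrays that measured it (-1.45 and -2.13, adjusted p = 0.0228 from limma), as was the aldo-keto reductase CG10863 on all 4 (-0.58 to -1.33, adjusted p = 0.0168 from limma). Adh, the alcohol dehydrogenase of ethanol tolerance, had the smallest difference, at -0.12, -0.37, -0.68 and -0.37 (mean -0.39 ± 0.23, SD, n = 4, adjusted p = 0.262 from limma), and Aldh was at -0.59 ± 0.09 (SD, n = 4, adjusted p = 0.0656 from limma). The aldo-keto reductases CG18547 and CG6084 had means of -0.77 ± 0.39 and -0.72 ± 0.44 (SD, n = 4) and were not called (adjusted p = 0.0705 and 0.101 from limma).

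Other called genes with lower ratios included smp-30, of the regucalcin family of calcium-binding proteins, at -1.38, -1.94 and -2.44 on replicates 1 to 3 (mean -1.92 ± 0.53, SD, n = 3, 3.78-fold lower, adjusted p = 0.00658 from limma). They also included CG9515 at -1.61, -1.81 and -1.72 on replicates 1, 2 and 4 (mean -1.71 ± 0.10, SD, n = 3) and CG10516 at -1.74, -1.53, -1.43 and -1.40 (mean -1.52 ± 0.16, SD, n = 4), and limma gave adjusted p = 0.00285 and 0.00173. For both genes the array values nearly coincided. CG9119 was at -1.39 ± 0.24 (SD, n = 4, adjusted p = 0.00285 from limma), the pyruvate carrier gene CG9396 at -1.07 ± 0.27 (SD, n = 4) and the basement membrane gene Ndg (nidogen) at -0.87 ± 0.28 (SD, n = 4).

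All 5 carboxypeptidases measured had means below 0 and 3 fell, with a median of -1.03. Over all tested probes 47.8% of means were below 0 and 1.98% were called lower. The 5 genes are all in the study's 48 h list of top genes. CG8539, a predicted metallocarboxypeptidase, had -1.21, -1.64, -1.11 and -1.09 (mean -1.26 ± 0.26, SD, n = 4, adjusted p = 0.00392 from limma). The predicted serine carboxypeptidases CG4572 and CG9953 had means of -1.03 ± 0.31 and -0.80 ± 0.27 (SD, n = 4), and limma gave adjusted p = 0.0152 and 0.0357, while CG4408 (-1.11) and CG2493 (-0.73) each had an adjusted p of 0.0501.

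Of 9 measured serine peptidases and peptidase inhibitors, 5 rose and none fell, with a median of 0.90. Over all tested probes 0.503% were called higher and 1.98% lower. Of the 9 genes, 6 are in the study's 48 h list of top genes. CG9676, a trypsin-like peptidase, had 2.84, 2.05, 2.98 and 3.11, a mean of 2.74 ± 0.47 (SD, n = 4, SE 0.19), or 6.70-fold higher (adjusted p = 0.000391 from limma). It had the lowest adjusted p among the genes with higher ratios. CG7829 had 2.33, 1.13, 2.08 and 1.95 (mean 1.87 ± 0.52, SD, n = 4, 3.66-fold higher, adjusted p = 0.00295 from limma), and CG8329 had 2.18, 1.06, 1.40 and 1.59 (mean 1.56 ± 0.47, SD, n = 4, 2.95-fold higher, adjusted p = 0.00456 from limma). In these 3 genes replicate 2 was the lowest array. CG3088 had 2.08, 0.79, 1.29 and 0.82 (mean 1.25 ± 0.60, SD, n = 4, adjusted p = 0.0272 from limma), and the Kunitz-type inhibitor CG10031 had 0.92, 0.73 and 1.06 on replicates 2 to 4 (mean 0.90 ± 0.16, SD, n = 3, adjusted p = 0.0423 from limma). The calls of CG3088 and CG10031 were lost with arrays scaled to one spread and with a dye term. CG5390, a serine peptidase homolog that lacks the catalytic residue, was lower on all 4 arrays at -0.81 ± 0.40 (SD, n = 4, adjusted p = 0.0608 from limma). The peptidase CG11841 (-0.10) and the inhibitors CG16712 (-0.05) and CG16704 (-0.44) did not pass.

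Among the phosphatases, CG8147 (now phu), a predicted alkaline phosphatase, had the highest mean of all called genes, from 1.60, 2.07, 2.46 and 5.07 (mean 2.80 ± 1.55, SD, n = 4, SE 0.49, 6.96-fold higher, adjusted p = 0.026 from limma). Replicate 4 carried much of this mean, and the call was lost without replicate 1, 2 or 3 (adjusted p up to 0.196). The moderated SE of CG8147 is smaller than its own SD of 1.55 would give. The acid phosphatase CG9449 had 0.55, 1.57 and 2.00 on replicates 1, 3 and 4 (adjusted p = 0.0568 from limma), and the predicted lipid phosphatase CG11425 had 0.74, 0.33, 1.11 and 1.59 (adjusted p = 0.0632 from limma). All 3 phosphatases had a mean above 0, and 1 rose. Over all tested probes 52.2% of means were above 0 and 0.503% were called higher. The 3 genes are all in the study's 48 h list of top genes. CG8343, a predicted C-type lectin, had 2.46, 1.53, 1.59 and 1.68 (mean 1.81 ± 0.44, SD, n = 4, 3.52-fold higher, adjusted p = 0.00266 from limma). Replicates 2 to 4 lay close together and replicate 1 above them. CG3348, a predicted chitin-binding protein, had 0.73, 1.37, 2.11 and 1.97 (mean 1.55 ± 0.63, SD, n = 4, 2.92-fold higher, adjusted p = 0.0131 from limma). CG34324 was higher on its 2 measured arrays, at 2.18 and 2.64 (5.32-fold, adjusted p = 0.00456 from limma). The other called genes with higher ratios were CG13868 (0.99), CG12116 (0.98), MFS14, a predicted transporter (0.98), RSG7 (0.88) and CG4825, a phosphatidylserine synthase (0.78), as means over 3 or 4 arrays.

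Of the genes that the study singles out at 48 h as induced and expressed in the nervous system, 6 were measured, all had means above 0 and 2 rose, CG8745 and RSG7. That choice was made on these samples. RSG7, a regulator of G-protein signalling, had 0.83, 1.03 and 0.78 on replicates 1 to 3 (mean 0.88 ± 0.13, SD, n = 3, 1.84-fold higher, adjusted p = 0.0425 from limma). CG11347 had 0.80, 1.19, 0.62 and 0.47 (mean 0.77 ± 0.31, SD, n = 4) with an adjusted p of 0.0501. The signalling adaptor Crk was measured with mated RNA in Cy3 only, at 1.08 on each of replicates 1 and 2 (adjusted p = 0.0656 from limma), so it has no value in the other dye orientation. oaf (out at first), a secreted protein of development, had close values on all 4 arrays, 0.59, 0.50, 0.63 and 0.59 (mean 0.58 ± 0.06, SD, n = 4, adjusted p = 0.0664 from limma).

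Immune, detoxification and chaperone genes were not called. Of 11 measured immune peptides and receptors, 7 had a mean above 0 and 4 below, with a median of 0.12. The Bomanin peptide genes CG15065 (1.35 and 0.90, on replicates 1 and 2 only) and CG5791 (1.27, 0.29, 0.74 and 1.26) had adjusted p = 0.0748 and 0.0592 from limma. The antibacterial peptide gene Dpt (diptericin) had 0.31, -1.24, -0.81 and -0.30, AttA was at 0.03 ± 0.14 (SD, n = 4) and AttC at -0.33 ± 0.16 (SD, n = 4). The stress-induced Turandot genes TotA (0.07, 1.55, 1.14 and 0.10) and TotC (0.18 and 1.18, on replicates 1 and 3) had means of 0.72 and 0.68, with wide gaps between arrays. The other means were 0.24 for the Bomanin gene CG16836, 0.12 for the NF-kappaB factor Rel, -0.06 for the prophenoloxidase gene CG5779 and -0.07 for nimB4. These genes did not share a direction. The 4 measured genes for cytochromes P450 and an esterase were lower on every array with a value, between -0.87 (alpha-Est2) and -0.46 (Cyp28d1) in the mean, with Cyp6g1 at -0.60 and Cyp9b2 at -0.65, and had adjusted p from 0.0604 (Cyp9b2) to 0.246 from limma. The cochaperones DnaJ-1 (-0.59 ± 0.12, SD, n = 4) and P58IPK (-0.74 ± 0.29, SD, n = 4), of which the latter works in the endoplasmic reticulum, had adjusted p = 0.069 and 0.0502, and the heat-inducible RNA Hsromega ranged from -1.96 to 1.07 over the arrays.

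To see where 48 h differs from the other head experiments, each of 4 arrays with their own mated and virgin samples, the difference of mean log2 ratios was tested in one limma fit on rows that hold the same gene in both. Tested against 0 in the same way, the 24 h arrays gave 1 call in 4140 probes (0.0242%), those of 72 h gave 5 calls in 6416 (0.0779%) and those of 0 to 2 h gave 3 in 3871 (0.0775%). Against 24 h, no probe of 1827 was called (percent called 0), and 104 had an unadjusted p under 0.05, 2.3% lower and 3.39% higher at 48 h. A missing call does not show that the times were alike. Of the named probes repressed at 48 h, 53 had 2 or more values at 24 h, and 52 of these were below 0 there. Their median was -1.16 at 24 h beside -1.09 at 48 h. CG11919 counts with 2 probes here. Of the named induced genes 9 had such values and 8 were above 0, with medians of 0.97 at 24 h and 1.57 at 48 h. These genes were selected by their calls at 48 h, which favours larger values at that time, so the medians are not an even comparison. The share of all probes on the same side of 0 at 24 h was not counted. The gene that differed in sign among those repressed was CG9577 at 0.19 ± 0.34 (SD, n = 2) at 24 h.

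Against 72 h, 9 of 2958 probes (0.304%) were called, 7 (0.237%) with a lower and 2 (0.0676%) with a higher ratio at 48 h. Lsp2 had -1.60, -0.77, -0.46 and -2.64 at 72 h, a mean of -1.37, and the ratio at 48 h was lower by a log2 difference of -2.69 with an SE of 0.45 (adjusted p = 0.0426 from limma). Lsp1beta had -1.12, 0.64 and 0.96 at 72 h, a difference of -3.35 (SE 0.47, adjusted p = 0.0277 from limma). No array of one time overlapped with any of the other for either gene, which a test of this difference on the same arrays favours. CG32444 and CG10516, at -0.18 ± 0.62 and -0.08 ± 0.40 (SD, n = 4) at 72 h, differed by -1.83 (SE 0.27) and -1.44 (SE 0.21), each with an adjusted p of 0.0277 from limma. CG3699 differed by -1.48 (SE 0.21), CG9515 by -1.36 (SE 0.23) and CG9485 by -1.20 (SE 0.20), with adjusted p from 0.0316 to 0.0433 from limma. The peptidase CG9676 was at 0.95 ± 0.20 (SD, n = 3) at 72 h and 1.80 log2 units higher at 48 h (SE 0.26, adjusted p = 0.0277 from limma). The lectin CG8343 was at 0.50 ± 0.26 (SD, n = 4) at 72 h and 1.32 higher at 48 h (SE 0.23, adjusted p = 0.0433 from limma). Without replicate 1 or without replicate 3 of 48 h no probe was called, and with arrays scaled to one spread none of the 9 was. Of the named probes repressed at 48 h, 58 had 2 or more values at 72 h and 54 were below 0 there, with a median of -0.38 beside -1.09 at 48 h. CG11919 again counts with 2 probes. Because these genes were selected by their calls at 48 h, the smaller median at 72 h does not by itself show a weaker response. The share of all probes below 0 at 72 h was not counted. Among genes not called in this comparison, Obp99b was at -2.50 ± 0.57 (SD, n = 3), to at -2.06 ± 0.52 (SD, n = 3), CG10814 at -2.98 ± 0.85 (SD, n = 4) and CG3348 at 2.55 ± 0.56 (SD, n = 3) at 72 h.

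**Figure D4:**
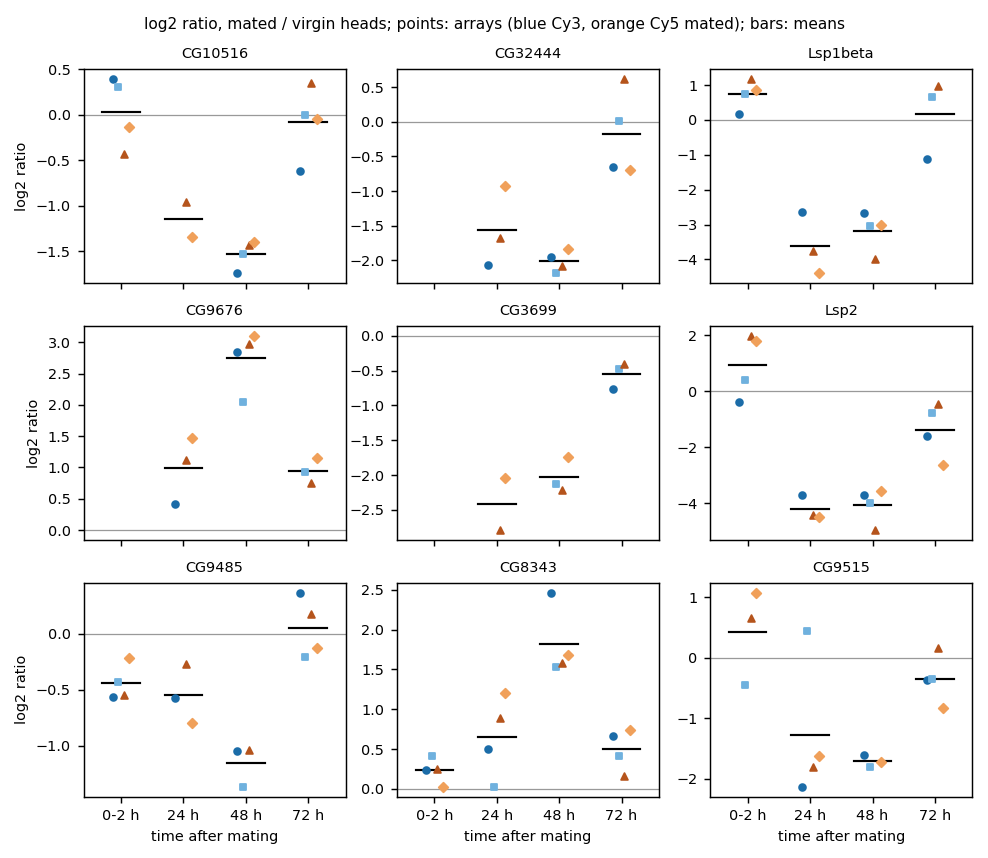
Log2 ratio of mated over virgin heads (y axis, scale differs between panels) by time after mating (x axis) for the 9 genes whose ratio differed between 48 and 72 h, with points for arrays (blue, mated RNA in Cy3; orange, Cy5) and bars for means. At 48 h all arrays of these genes lie farther from 0 than any array at 72 h. The genes were selected by a test of this difference on these arrays, so this describes them and does not support the calls.

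Against 0 to 2 h, 11 of 1798 probes (0.612%) were called, 8 (0.445%) lower and 3 (0.167%) higher at 48 h, and with the replicate number as a block 28 of 1592 were, among them all 11. At 0 to 2 h both mated and virgin females were frozen directly after CO2 anesthesia, unlike those at 48 h. The paper raises a longer CO2 exposure of virgins as a possible source of lower ratios of immune genes at 0 to 2 h. Time after mating and recent anesthesia therefore cannot be told apart in this comparison. Lsp2 had -0.39, 0.42, 1.99 and 1.80 at 0 to 2 h, a difference of -5.01 (SE 0.50, adjusted p = 0.000975 from limma), the largest of the 11. aay was higher on every array at 0 to 2 h (0.59, 0.81, 0.54 and 0.70) and lower on every array at 48 h, a difference of -1.58 (SE 0.18, adjusted p = 0.00176 from limma). CG10621 (0.43, 0.62 and 1.29 at 0 to 2 h, difference -1.47) and fit (0.85, 0.84, 0.62 and 0.39, difference -1.52) also changed from above to below 0, and limma gave adjusted p = 0.0337 and 0.0262. CG10962, CG9515, CG10516 and CG12896 differed by -2.61, -2.14, -1.56 and -1.73, where CG12896 had a mean of -0.38 ± 0.56 (SD, n = 3) in the 48 h arrays, against 1.35 ± 0.07 (SD, n = 4) in the earlier ones. CG8147 (difference 3.48, SE 0.60), CG8343 (1.58, SE 0.23) and CG8329 (1.40, SE 0.24) were higher at 48 h, and limma gave adjusted p = 0.0256, 0.0115 and 0.0256 in that order. Lsp1beta lies on different rows of the prints, so the difference was not tested, and its values at 0 to 2 h were 0.16, 0.75, 1.17 and 0.85.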

How the data were processed

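The authors deposited, for each array, normalized log2 ratios that they had already turned so that mated is over virgin. The submitters' processing notes name limma. How background was corrected, how dyes were normalized and why cells are empty is not given in the sources used here. Scale and sign were checked against the mean ratios of the study's lists. The study's lists also hold fold changes and p-values of its own comparisons, which were used only to name rows: mean ratios were matched to a row (relative tolerance 2e-05, ties by one-sample p, tolerance 0.001), which placed 99 of 100 entries for 48 h and 496 of 500 in all. Current symbols come from RefSeq (Release 6). The table has 15776 rows, of which 32 control rows, empty at 48 h, were left out. No per-sample column was unused.

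Probes with at least 2 values were tested with limma 3.58.1 in R 4.3.3 (lmFit and eBayes, with statmod 1.5.0) against a mean of 0, with Benjamini-Hochberg adjustment over all probes. Differences between times used plates 2 to 30 of the print (0 to 2 h, 24 h) or 2 to 41 (72 h), where filled cells matched. The 48 h and 0 to 2 h arrays of the same number deviated together from their means (r = 0.19, 0.57, 0.42 and 0.36 over 557 probes), but so did arrays of different number and the same dye orientation (0.16 to 0.51), so number and dye cannot be told apart. The text names the members of the gene lists that were measured, the 5 highest and 5 lowest means among called probes with 3 or more values of one sign, and genes the study names for 48 h. CG12116, CG13868, CG34324, CG9119, CG9396, CG9515, CG10516, CG11919, CG12896, CG3348, CG4825, MFS14, Ndg and smp-30 were named after their values were seen. Members and lists were chosen with earlier results of these data known. The fits were tested on simulated data. Alternatives were centring, scaling, a dye term, filters on empty cells, robust eBayes, all 20 arrays, a Student test, each array left out, a replicate block and all rows. Replicates are labelled as independent biological samples, and an array held 2076 to 2875 values. Tables were made with pandas 2.3.3, numpy 2.4.6 and scipy 1.17.1, and figures with matplotlib 3.10.9, all in Python 3.11.15.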

Additional observations from a re-analysis of the deposited data

Results flagged for a closer look

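Of 100 named probes with 4 values, 9 had 1 array far from the other 3 (Dixon's test at 95%), and chance flags about 1 in 20. Among called genes these were CG11909 (replicate 4 at -1.66), CG11919 (replicate 2 at -1.60), CG5840 (replicate 2 at -1.15), CG6385 (replicate 4 at -0.61), Reg-2 (replicate 1 at -0.30) and CG8343 (replicate 1 at 2.46). Among genes not called they were Nipsnap (replicate 3 at -0.75), the rhodopsin gene Rh5 (replicate 1 at 0.83) and the neuropeptide gene sNPF (replicate 2 at 0.58).

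The mated over virgin ratio differed between 48 h and 72 h by limma's test of the difference for 9 genes. As 48 h minus 72 h on the log2 scale the values were -1.44 for CG10516, -1.83 for CG32444, -3.35 for Lsp1beta, -1.48 for CG3699, -2.69 for Lsp2, -1.20 for CG9485, -1.36 for CG9515, 1.80 for CG9676 and 1.32 for CG8343.

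Between 48 h and 0 to 2 h it differed for 11 genes. The values were -5.01 for Lsp2, -1.58 for aay, -1.56 for CG10516, -1.73 for CG12896, -2.61 for CG10962, -1.52 for fit, -2.14 for CG9515, -1.47 for CG10621, 1.58 for CG8343, 1.40 for CG8329 and 3.48 for CG8147. Lsp1beta was below 0 on every array at 48 h and above 0 on every array at 0 to 2 h (mean 0.73, n = 4), but it lies on different rows of the prints and the difference was not tested.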

How the results depend on the processing

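The 74 calls at 48 h became 85 to 104 with centred or scaled arrays or a dye term. Fitting all 20 arrays together gave 113. The one-sample Student test called 0 (0 lower, 0 higher; 357 at an unadjusted p under 0.05). Leaving out 1 array gave 14 to 91 calls in all, 11 to 68 lower and 3 to 23 higher, and the higher calls were 25 with the dye term and 26 with all 20 arrays. The 9 calls between 48 and 72 h became 1 with scaled arrays, 3 with the dye term, 4 with values on all 4 arrays, 5 with all 20 arrays, 0 with a replicate block, whose numbers did not pair these arrays, and 0 to 10 without 1 array. The 11 calls between 48 and 0 to 2 h became 48 with the dye term, 21 with all 20 arrays, 28 with the replicate block and 4 to 11 without 1 array. Against 24 h all rows, whose layouts differ in part, gave 3, and the replicate block and the other alternatives gave 0. The causes were not tested. Of 66 named probes not called, 33 were called under some alternative.

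Leaving out 1 array turned the sign of 12 named means, none of them called. The ranges without 1 array were -0.013 to 0.099 for AttA, -0.24 to 0.021 for CG11841, -0.17 to 0.075 for CG16712, -0.11 to 0.55 for CG16836, -0.21 to 0.12 for CG5779, -0.94 to 0.072 for Hsromega, -0.40 to 0.041 for Rh5, -0.067 to 0.14 for bur, -0.25 to 0.43 for cac, -0.52 to 0.18 for cpx, -0.20 to 0.11 for hgo and -0.18 to 0.081 for nimB4. With 4 arrays, and 2076 values on the sparsest, smaller differences may be missed.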
